A study of Danio rerio with 12 samples.

Results

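Trunk muscle of desmin double mutant zebrafish was compared with trunk muscle of wild-type (WT) zebrafish by RNA sequencing. The 6 trunk libraries were taken by their sample titles from the 12 libraries of the series, 3 from mutants and 3 from WT fish. The mutants carried the genotype desma-/-;desmb-/-, and the WT fish were of strain AB, taken from the line that served to make the double mutant. All fish were 20 months old, and muscle was dissected after death and sequenced as poly-A selected, stranded libraries. The labels call the cells of the samples myofibers, though the RNA came from whole dissected muscle. The sample labels name a mutant, whereas the text on the series describes a knock-down of desmin. The other 6 libraries of the series came from extraocular muscle (EOM), the muscles that move the eye. They enter here where tissues are compared and in the scaling of the printed levels, but not in the main test of trunk. The labels give neither the sex of the fish nor whether the 3 libraries of a group came from separate fish, so p-values measure the spread between these samples, which may be technical. The study's description asks why extraocular muscle resists muscular dystrophy.

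Desmin is the muscle intermediate filament protein. It links neighbouring myofibrils at their Z-discs, and ties them to the costameres under the cell membrane, to mitochondria and to nuclei. In humans, desmin mutations cause myofibrillar myopathy. Dystrophic muscle is known for cycles of fibre damage and repair, in which leukocytes clear debris, connective tissue cells lay down matrix and satellite cells, the stem cells of muscle, rebuild fibres. The zebrafish genome holds a pair of desmin genes, desma and desmb.

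The libraries held 46.1 to 74.1 M sense reads in genes, where 3 reads amount to 0.057 to 0.0754 CPM. CPM are the deposited counts scaled to library size, with TMM (trimmed mean of M-values) factors computed over all 12 libraries. Between 44.5% and 48.3% of a library's reads fell on its 20 top genes. Principal components were computed on log2(CPM + 1) of 13211 genes. On the first, with 50.3% of the variance, the 3 mutant libraries lay at -29.1 to -13.5 and the 3 WT libraries at 19.8 to 24.9. The second held 24.2% and spread the WT libraries, with WT replicate 2 at 23.0 and WT replicate 3 at -28.1. Muscle genes dominated all 6, with the fast myosin gene myhc4 at 69730 to 108000 CPM. RNA of eye and skin was also present in trunk libraries. The 48 photoreceptor genes of a marker list summed to 6.78, 6.99 and 7.68 CPM in mutants, against 147, 16.8 and 15.2 CPM in WT, so that WT replicate 1 stood apart. The epidermal keratin gene krt5 was named after its values were seen. It had 7.41, 5.91 and 57.9 CPM in mutants, against 74.6, 18.6 and 135 CPM in WT. For krt5, this put mutant replicate 3 and WT replicates 1 and 3 above the rest. The sum over the 59 genes of a keratinocyte marker list did not set mutant replicate 3 apart. That sum was 1233, 1371 and 1335 CPM in mutants, against 1642, 1043 and 1588 CPM in WT.

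Transcripts of desma (ENSDARG00000058656) had 17.6, 30.7 and 49.3 CPM in mutants, against 619, 679 and 559.6 CPM in WT. The mutant libraries thus carried the desma part of their label, with a log2 fold change of -4.23 ± 0.36 (SE, adjusted p = 0.000949), mutant over WT as throughout. Reads of desmb were at the floor in all 6 libraries, 25 in total, and the gene was filtered out before testing. Of 17342 genes tested with edgeR's quasi-likelihood test and Benjamini-Hochberg adjustment, 1456 (8.4%) passed an adjusted p of 0.05 and are called changed below. Of these, 826 (4.76%) were higher and 630 (3.63%) lower in mutants, and 728 changed by at least 2-fold. The median log2 fold change of all genes tested was -0.01. In all 1456 the mutant and WT libraries did not overlap, which also held for 30.3% of all genes tested. The number of calls depended on the libraries included. Dropping mutant replicate 1 left 488, dropping mutant replicate 2 left 497 and dropping WT replicate 1 left 649, whereas 2043 were called once WT replicate 3 was dropped. No gene shared with the 1456 turned its direction in any of these fits.

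**Figure D1:**
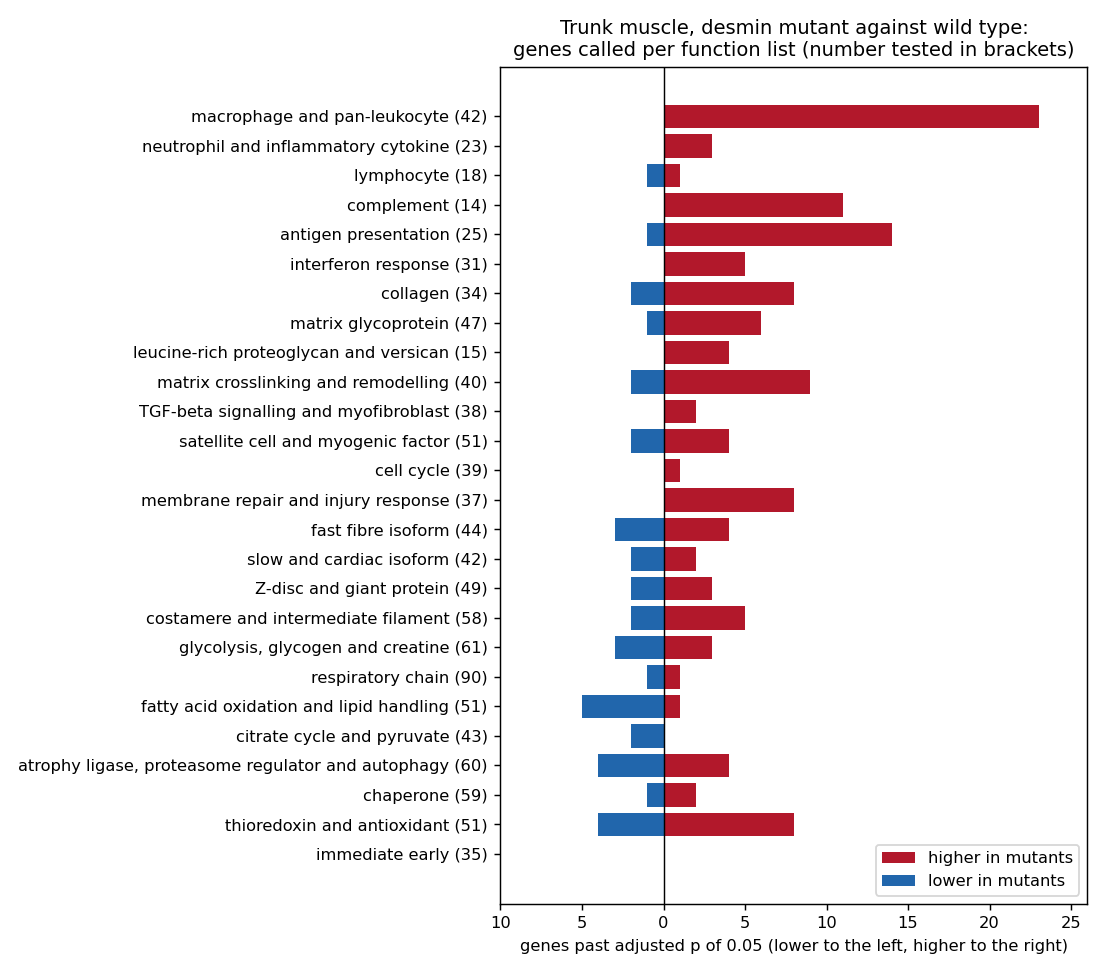
Bars count the genes called per function list in trunk muscle, higher in mutants to the right and lower to the left, with the number tested in brackets. Macrophage and pan-leukocyte, complement and antigen presentation genes gave 23, 11 and 14 calls to the right, whereas the contractile and metabolic lists gave few calls in both directions.

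Genes of inflammation held the highest share of calls among the function groups. All function lists were chosen with earlier results of these data known, so their shares are descriptions only. Of 153 tested members, 57 rose and 2 fell, which is 38.56% against the 8.4% of all genes, with a median log2 fold change of 0.68. Of the 57 genes that rose, 43 were highest in mutant replicate 1 and 43 lowest in mutant replicate 3. The group had 37 calls without mutant replicate 2 and 37 without WT replicate 1. More cells of a type and more RNA per cell cannot be told apart in such bulk tissue.

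Macrophage and pan-leukocyte genes rose without exception among those called, 23 of 42 tested, with a median of 0.99. The list's summed level was 702, 602 and 572 CPM in mutants, against 414, 403 and 386 CPM in WT, so the groups did not overlap. The gene fcer1gl, which encodes a signalling subunit of Fc receptors, had 15.1, 11.3 and 10.5 CPM in mutants, against 3.81, 3.49 and 4.05 CPM in WT. Its log2 fold change was 1.72 ± 0.18 (SE, adjusted p = 0.000575). Transcripts of irf8, a transcription factor of macrophage development, had 10.03, 7.6 and 6.53 CPM in mutants, against 3.04, 3.14 and 3.19 CPM in WT, and rose by 1.39 (adjusted p = 0.00232) on the log2 scale. The weakly expressed ncf4, a subunit gene of the phagocyte oxidase, had 0.847, 0.798 and 0.607 CPM in mutants, against 0.135, 0.1 and 0.176 CPM in WT, a log2 fold change of 2.45 ± 0.43 (SE, adjusted p = 0.00766). The lysosomal protease gene ctss2.1, a cathepsin S, had 9.62, 7.72 and 8.47 CPM in mutants, against 3.99, 2.46 and 3.02 CPM in WT (1.46 on the log2 scale), and the integrin gene itgae.1 had 21.2, 17.7 and 16.9 CPM in mutants, against 7.06, 6.35 and 6.84 CPM in WT (1.48). All 5 of these calls held when any 1 of the 6 libraries was left out. Among members that were not called, the legumain gene lgmn had 135, 140.2 and 145 CPM in mutants, against 117, 136 and 97 CPM in WT, and the leukocyte integrin gene itgb2 had 34.5, 28.6 and 25.8 CPM in mutants, against 23.6, 23.9 and 18.9 CPM in WT. The gene apoeb, not called, leaned lower, with 42.4, 47.4 and 39.7 CPM in mutants, against 61.9, 42.8 and 58 CPM in WT. Of the 42 genes tested, 39 had a positive log2 fold change and 3 a negative one.

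Signals that attract or mark other leukocytes gave fewer calls. Of 23 neutrophil and cytokine genes, 3 rose, all chemokines, and none fell (13.0%, against 8.4% of all genes, median 0.36). The chemokine gene cxcl12b had 50.5, 69.8 and 60.1 CPM in mutants, against 18.9, 19.1 and 25.8 CPM in WT, a log2 fold change of 1.52 ± 0.17 (SE, adjusted p = 0.000949). The chemokine gene ccl38.6 had 14.3, 11.3 and 6.15 CPM in mutants, against 3.36, 3.31 and 2.67 CPM in WT, a log2 fold change of 1.79 ± 0.29 (SE, adjusted p = 0.00808). Its level was lowest in mutant replicate 3, which still lay above every WT library. The third, ccl19a.1, rose by 0.60 (adjusted p = 0.0408), a call that 5 of the 6 removals of a library ended. In contrast to cxcl12b, its paralog cxcl12a was not called, with 61.2, 44.3 and 42.6 CPM in mutants, against 63.4, 39.1 and 45.4 CPM in WT. Lymphocyte genes gave 1 call in each direction among 18 tested. The immunoglobulin M heavy chain gene ighm fell, with 1.35, 1.04 and 0.837 CPM in mutants, against 10.04, 4.07 and 3.04 CPM in WT and a log2 fold change of -2.39 ± 0.47 (SE, adjusted p = 0.0235). The T-cell receptor kinase gene zap70 rose, with 2.37, 1.79 and 0.879 CPM in mutants, against 0.564, 0.301 and 0.754 CPM in WT and a log2 fold change of 1.65 ± 0.43 (SE, adjusted p = 0.0439). Both calls were lost without one or another library, ighm in 3 and zap70 in 4 of the 6 removals.

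Complement genes rose in 11 of 14 tested cases and fell in none, with a median of 0.99. A further 19 of the 33 members were filtered out for low counts. The recognition chains of C1q moved together. Levels of c1qa were 3.97, 3.84 and 3.66 CPM in mutants, against 1.71, 1.71 and 1.74 CPM in WT, and those of c1qb were 6.62, 5.82 and 5.77 CPM in mutants, against 2.62, 2.33 and 2.97 CPM in WT. Their log2 fold changes were 1.17 ± 0.18 (SE, adjusted p = 0.00387) and 1.22 ± 0.17 (SE, adjusted p = 0.00282). Of the later components, c6.2, part of the membrane attack complex, had 24.9, 17.4 and 18.3 CPM in mutants, against 6.27, 7.38 and 5.08 CPM in WT, a log2 fold change of 1.71 ± 0.19 (SE, adjusted p = 0.000719). The C4 gene c4b had 63.5, 34.7 and 28.2 CPM in mutants, against 18.1, 18.2 and 16.1 CPM in WT, with mutant replicate 1 well above the other libraries. Its log2 fold change of 1.29 ± 0.29 (SE, adjusted p = 0.0325) lost its call in 4 of the 6 removals. A pair of genes of the central component C3, c3b.1 and c3b.2, rose at low counts. The first had 1.02, 1.24 and 2.03 CPM in mutants, against 0.158, 0.0251 and 0.0251 CPM in WT, the second 0.369, 0.418 and 0.544 CPM in mutants, against 0.0451, 0.0753 and 0.0251 CPM in WT. WT values of c3b.1 in replicates 2 and 3 were under the floor of 3 reads, as were those of c3b.2 in replicates 1 and 3. Another C3 gene, c3a.1, was not called, with 1.54, 0.627 and 0.377 CPM in mutants, against 2.55, 0.879 and 0.981 CPM in WT.

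Antigen presentation showed 14 rises and 1 fall among 25 genes, with a median of 0.99. Of these calls, 4 rises and the 1 fall lie among 6 neighbours in the order of RefSeq genes, from mhc1uba to tap2a. Directly before mhc1uba in that order lies tapbp.2, another of the rises (log2 fold change 0.93, adjusted p = 0.0351). These calls may therefore not be independent of each other. The rises included the immunoproteasome, the form of the proteasome that cuts peptides for display on class I molecules. Its subunit gene psmb8a had 25.3, 11.6 and 12.9 CPM in mutants, against 3.09, 3.89 and 2.87 CPM in WT, a log2 fold change of 2.36 ± 0.31 (SE, adjusted p = 0.0044). The subunit gene psmb10 had 13.8, 12.4 and 9.46 CPM in mutants, against 3.13, 2.64 and 3.37 CPM in WT, a log2 fold change of 1.98 ± 0.19 (SE, adjusted p = 0.000384). Levels of psmb9a were 29.4, 16.1 and 9.77 CPM in mutants, against 2.87, 3.97 and 3.09 CPM in WT, and those of the related psmb12 were 12.6, 5.83 and 5.33 CPM in mutants, against 2.28, 1.91 and 1.41 CPM in WT. In psmb8a, psmb9a and psmb12, mutant replicate 1 was the highest library. The calls of psmb9a, psmb12 and mhc2dab were lost in 3, 2 and 4 of the 6 removals. The class II gene mhc2dab had 19.1, 11.8 and 4.23 CPM in mutants, against 0.677, 1.16 and 1.06 CPM in WT. The class I gene mhc1zka had 1.56, 0.95 and 0.69 CPM in mutants, against 0.113, 0.0753 and 0.0754 CPM in WT. Their log2 fold changes were 3.63 ± 0.62 (SE, adjusted p = 0.024) and 3.57 ± 0.49 (SE, adjusted p = 0.00228). In WT replicates 2 and 3, mhc1zka was at the floor of 3 reads. The one gene that fell was the class I gene mhc1uba, named after its value was seen, with 46.3, 70.9 and 42.9 CPM in mutants, against 155, 238 and 92.2 CPM in WT and a log2 fold change of -1.57 ± 0.34 (SE, adjusted p = 0.0345), a call that 4 of the 6 removals ended. Genes of the light chain shared by class I molecules were not called, b2m with 489, 434 and 347 CPM in mutants, against 339, 331 and 308 CPM in WT and b2ml with 760.1, 704 and 674 CPM in mutants, against 661, 739.7 and 566 CPM in WT. The authors' counting set aside reads that fit more than 1 place, so levels of near-identical class I and class II genes are uncertain.

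Of 31 interferon response genes, 5 rose and none fell (16.1%, against 8.4% of all genes, median 0.26). The transcription factor gene irf1b had 13, 9.92 and 4.6 CPM in mutants, against 3.16, 3.31 and 3.14 CPM in WT, and irf9, which encodes a partner of STAT proteins, had 41.1, 41.4 and 30.6 CPM in mutants, against 23.1, 28 and 20.9 CPM in WT. Their log2 fold changes were 1.54 ± 0.34 (SE, adjusted p = 0.0316) and 0.68 ± 0.16 (SE, adjusted p = 0.0277). The interferon-induced ifi44a6 had 4.04, 4.07 and 0.544 CPM in mutants, against 0.135, 0.201 and 0.126 CPM in WT, so that mutant replicate 3 lay far below the other mutants but above all WT libraries. All 5 calls, with gbp1 and ifi44a8, were lost in 3 to 5 of the 6 removals, and none of the list was called without mutant replicate 2. The signal transducer stat1a was not called, with 76.5, 69.2 and 69 CPM in mutants, against 80.7, 79.8 and 62.9 CPM in WT.

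**Figure D2:**
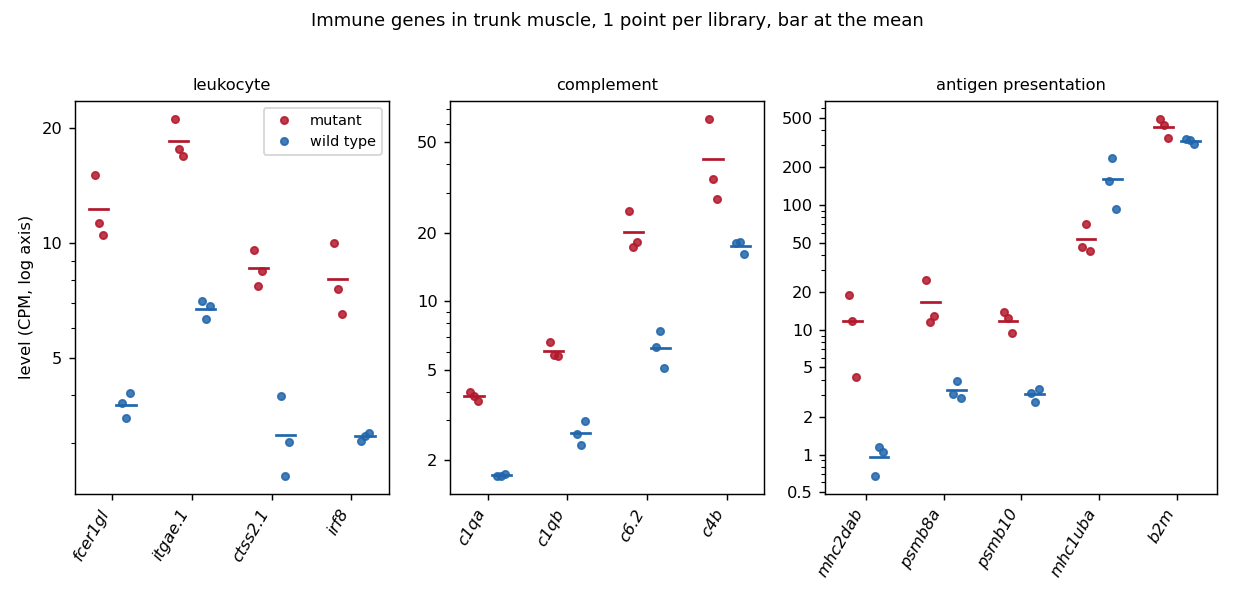
Each point is the level of a gene in 1 trunk library in CPM on a log axis, mutants left of WT, with a bar at the mean of 3. All genes shown are higher in the 3 mutant libraries than in the 3 WT libraries, except mhc1uba, which is lower, and of the genes shown b2m was not called.

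Matrix genes, from lists likewise chosen with earlier results known, were the second group by share of calls. They gave 29 rises and 5 falls among 173 tested (19.7%, against 8.4% of all genes). The median log2 fold change was 0.15. Beside these genes, the tendon and connective tissue marker list summed to 568, 608 and 565 CPM in mutants, against 439, 443 and 553.7 CPM in WT. The groups did not overlap in this sum, and its part in the matrix results was not tested. The count was sensitive to single libraries. With mutant replicate 1, 2 or 3 left out it was 9, 8 or 21, and with WT replicate 1, 2 or 3 left out it was 12, 18 or 46.

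Among 34 collagen genes, 8 rose and 2 fell, with a median of 0.53. Collagen VI, a microfibril around muscle fibres, is represented by col6a1, which had 118, 113 and 114 CPM in mutants, against 66.8, 69.5 and 88 CPM in WT, a log2 fold change of 0.64 ± 0.15 (SE, adjusted p = 0.028). The fibril collagen gene col5a1 had 82.9, 78.6 and 74.4 CPM in mutants, against 46.6, 46.9 and 61.2 CPM in WT, a log2 fold change of 0.63 ± 0.15 (SE, adjusted p = 0.0311). A copy of the gene for collagen II (COL2A1 in the symbol table, ENSDARG00000011407) rose by 0.91 ± 0.16 (SE, adjusted p = 0.0088), and col8a2 by 0.78 ± 0.20 (SE, adjusted p = 0.0383). The gene col18a1b, one of the 8 that rose and named after its values were seen, had 77, 79.2 and 62.5 CPM in mutants, against 46, 51.1 and 50.5 CPM in WT, a log2 fold change of 0.59 ± 0.14 (SE, adjusted p = 0.0284). Of the genes that fell, the collagen IV gene col4a1 had 52.2, 61.8 and 69.5 CPM in mutants, against 86.1, 94.8 and 112.4 CPM in WT, and col15a1b had 8.64, 9.73 and 9.48 CPM in mutants, against 18.9, 15.4 and 21 CPM in WT. Their log2 fold changes were -0.66 ± 0.16 (SE, adjusted p = 0.0297) and -0.97 ± 0.15 (SE, adjusted p = 0.0044). The genes of the main fibril collagen, collagen I, were not called. Levels of col1a1b were 182, 196 and 166 CPM in mutants, against 75.2, 76.1 and 147 CPM in WT (log2 fold change 0.88, adjusted p = 0.0768), and those of col1a2 were 170.2, 180.4 and 151 CPM in mutants, against 64.5, 67.4 and 133 CPM in WT (log2 fold change 0.93, adjusted p = 0.077). All 3 mutant values exceeded all WT values in both, and WT replicate 3 was the highest WT library.

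Glycoproteins of the matrix gave 6 rises and 1 fall among 47 genes (14.9%, against 8.4% of all genes, median 0.15). The thrombospondin gene thbs2a had 12.7, 15.1 and 12.8 CPM in mutants, against 5.87, 6.3 and 8.2 CPM in WT, a log2 fold change of 1.01 ± 0.17 (SE, adjusted p = 0.00603). The gene efemp2b, a fibulin of elastic fibres, had 24.8, 23.2 and 22 CPM in mutants, against 13.5, 15.2 and 11.4 CPM in WT, a log2 fold change of 0.82 ± 0.14 (SE, adjusted p = 0.00603). The gene that fell was hspg2, which encodes perlecan, the heparan sulfate proteoglycan of basement membranes. It had 52.1, 59.7 and 76.4 CPM in mutants, against 93.9, 129 and 96.1 CPM in WT, a log2 fold change of -0.74 ± 0.18 (SE, adjusted p = 0.0286). The periostin gene postnb was not called, with 173, 185 and 169 CPM in mutants, against 100.7, 97.5 and 151 CPM in WT. The related periostin gene postna, named after its values were seen, rose by 0.68 ± 0.12 (SE, adjusted p = 0.00929) on the log2 scale. Its levels were 71.4, 68.1 and 63.4 CPM in mutants, against 44.5, 42.3 and 41.8 CPM in WT. Of 15 leucine-rich proteoglycan genes, which encode proteins that bind collagen fibrils, 4 rose and none fell. Decorin, dcn, had 162, 149 and 136 CPM in mutants, against 87, 93.3 and 85.6 CPM in WT, a log2 fold change of 0.77 ± 0.13 (SE, adjusted p = 0.00745). The osteoglycin genes ogna and ognb and the gene prelp rose by 0.76, 0.87 and 0.64 on the log2 scale.

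Enzymes that cut or crosslink matrix gave 9 rises and 2 falls among 40 genes (median 0.29). The gelatinase gene mmp2 had 120.0, 122 and 117 CPM in mutants, against 67.3, 70.03 and 83.3 CPM in WT, a log2 fold change of 0.72 ± 0.14 (SE, adjusted p = 0.0123). The inhibitor gene timp2a, whose product binds MMP2 in mammals, had 51.1, 52.3 and 36.6 CPM in mutants, against 19.5, 20.4 and 17.6 CPM in WT, a log2 fold change of 1.31 ± 0.16 (SE, adjusted p = 0.00122). The gelatinase gene mmp9 and fap, which encodes a protease of activated fibroblasts, rose by 0.96 (adjusted p = 0.0469) and 0.87 (adjusted p = 0.04), calls that 5 of the 6 removals ended. The genes that fell were bmp1b, a procollagen protease, with 0.695, 1.46 and 0.69 CPM in mutants, against 2.5, 2.21 and 4.5 CPM in WT, and mmp17a, with 0.499, 0.38 and 0.356 CPM in mutants, against 0.789, 1.63 and 1.28 CPM in WT. TGF-beta signalling and myofibroblast genes gave 2 rises among 38 (5.26%, against 8.4% of all genes), with a median of -0.04. These were tgfbi, with 54.4, 62.1 and 46.4 CPM in mutants, against 30.6, 30.1 and 34.1 CPM in WT, and the receptor gene tgfbr2b, with 76.8, 83.7 and 66.4 CPM in mutants, against 59.5, 52.4 and 42 CPM in WT. The myofibroblast and smooth muscle actin gene acta2 was not called, with 63.9, 79.3 and 50.6 CPM in mutants, against 70.31, 59.9 and 60.7 CPM in WT, nor was the fibroblast and mural cell receptor gene pdgfrb, with 38.4, 39.9 and 37.7 CPM in mutants, against 39.2, 38.9 and 34 CPM in WT. Among the matrix genes named by rule, the calls of col15a1b, thbs2a, thbs4a, efemp2b, dcn and timp2a held in all 6 removals of a library, and the others were lost in at least 1.

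**Figure D3:**
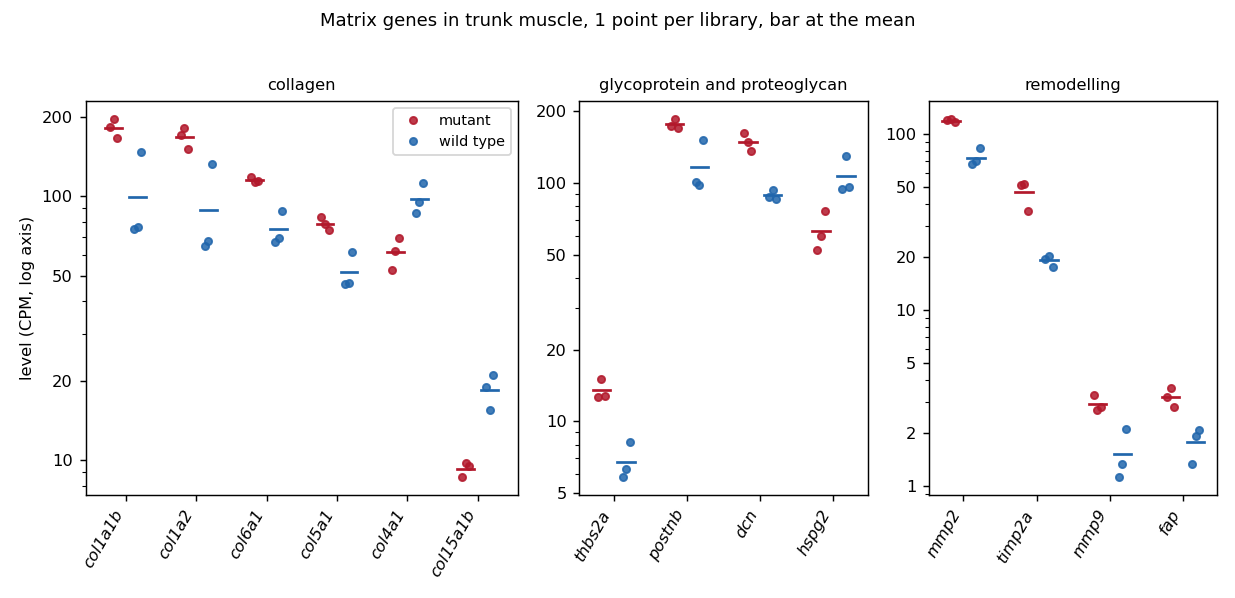
Each point is the level of a matrix gene in 1 trunk library in CPM on a log axis, mutants left of WT, with a bar at the mean of 3. In col1a1b, col1a2 and postnb, which were not called, the highest WT point is replicate 3, and the points of col4a1, col15a1b and hspg2 lie lower in mutants.

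Regeneration genes gave 13 rises and 2 falls among 127 tested (11.8%, against 8.4% of all genes), with a median of 0.26. Most of the rises, 8 of 37 genes, belonged to membrane repair and injury response. The muscle calpain gene capn3b, whose human counterpart is mutated in a limb-girdle dystrophy, had 83.9, 78.8 and 87.1 CPM in mutants, against 29.2, 41 and 35.8 CPM in WT, a log2 fold change of 1.26 ± 0.15 (SE, adjusted p = 0.00111). The gene klhl41a, whose product stabilises sarcomere proteins, had 63.3, 66.8 and 83.2 CPM in mutants, against 38, 30.3 and 34.1 CPM in WT, a log2 fold change of 1.08 ± 0.15 (SE, adjusted p = 0.00266). Levels of anxa4, an annexin that binds membranes with calcium, were 38.3, 36.3 and 35.4 CPM in mutants, against 23.6, 21.6 and 18.5 CPM in WT, and those of cavin4a, a caveola protein of muscle, were 286, 283 and 253 CPM in mutants, against 185, 207 and 166 CPM in WT. Their log2 fold changes were 0.81 ± 0.13 (SE, adjusted p = 0.00488) and 0.58 ± 0.14 (SE, adjusted p = 0.028). The stretch-responsive ankrd1a had 12.3, 20.9 and 13.4 CPM in mutants, against 6.81, 5.88 and 9.88 CPM in WT, a log2 fold change of 1.06 ± 0.26 (SE, adjusted p = 0.0376). In the same list, klhl41b, with 541, 630.2 and 613 CPM in mutants, against 684, 793 and 515 CPM in WT, and xirp2a, with 542, 514 and 670.0 CPM in mutants, against 577, 874 and 646 CPM in WT, were not called.

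Satellite cell and myogenic genes gave 4 rises and 2 falls among 51 (11.8%, against 8.4% of all genes, median 0.07). The gene mymk, which encodes the fusion protein myomaker, was weakly expressed, with 0.543, 0.494 and 0.628 CPM in mutants, against 0.113, 0.176 and 0.101 CPM in WT and a log2 fold change of 2.098 ± 0.45 (SE, adjusted p = 0.018). The acetylcholine receptor subunit gene chrng, in mammals a feature of embryonic and denervated fibres, had 8.19, 5.76 and 5.75 CPM in mutants, against 3.63, 2.81 and 3.04 CPM in WT, a log2 fold change of 1.07 ± 0.20 (SE, adjusted p = 0.0103). The adhesion gene ncam1a rose by 1.28 (adjusted p = 0.0244) and the secreted factor gene fstl1b by 0.52 (adjusted p = 0.0353). The receptor genes notch1b and igf1ra fell, with log2 fold changes of -0.56 (adjusted p = 0.0215) and -0.98 (adjusted p = 0.0478). Outside the naming rule, the satellite cell genes pax7a and pax7b were not called, with log2 fold changes of -0.28 and 0.42. Nor were the myogenic factor genes myf5, myod1, myog and myf6, at 0.40, -0.43, 0.26 and -0.38, or the gene mymx, at -0.31. Of the 51 genes, 28 had a positive log2 fold change and 23 a negative one. Of 39 cell cycle genes, cdk4 alone was called (2.56%, against 8.4% of all genes), with 5.8, 5.76 and 4.35 CPM in mutants, against 3.5, 3.01 and 3.22 CPM in WT. The list's median was 0.49, 32 of its 39 genes had a positive log2 fold change, and 15 were called without WT replicate 3. Among the named regeneration genes, the calls of capn3b, klhl41a, anxa4 and chrng held in all 6 removals. With mutant replicate 1, 2 or 3 left out the group had 4, 4 or 9 calls, and with WT replicate 1, 2 or 3 left out it had 5, 9 or 33.

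Contractile and attachment genes gave 14 rises and 9 falls among 193 tested (11.9%, against 8.4% of all genes), with a median of 0.04. Several abundant fast genes were not called. The fast myosin heavy chain gene myhc4 had 81160, 91100 and 81290 CPM in mutants, against 91710, 108000 and 69730 CPM in WT, and the actin gene actc1b had 33230, 38720 and 27350 CPM in mutants, against 28100, 30740 and 27530 CPM in WT. Within the fast list of 44, 4 genes rose and 3 fell (15.9%), and 3 of these 7 were copies of troponin I of fast fibres. The copy ENSDARG00000035958 had 8.97, 5.87 and 8.83 CPM in mutants, against 0.925, 1.03 and 1.38 CPM in WT, a log2 fold change of 2.84 ± 0.24 (SE, adjusted p = 0.000201). A second copy, ENSDARG00000045592, had 5.78, 5.26 and 6.49 CPM in mutants, against 1.13, 2.41 and 1.41 CPM in WT and rose by 1.85 (adjusted p = 0.00253). The third, ENSDARG00000029995, fell instead. It had 1080, 1448 and 1147 CPM in mutants, against 2971, 2393 and 1868 CPM in WT, a log2 fold change of -0.96 ± 0.19 (SE, adjusted p = 0.0125). All 3 are TNNI2 in the symbol table, and reads shared between copies were not counted. Calcium is pumped back into the sarcoplasmic reticulum of fast fibres by the product of atp2a1, which had 2821, 3641 and 2849 CPM in mutants, against 5700, 5142 and 6263 CPM in WT, a log2 fold change of -0.86 ± 0.16 (SE, adjusted p = 0.0102). The related pump gene atp2a1l was not called, with 31340, 35970 and 32600 CPM in mutants, against 32040, 47980 and 31530 CPM in WT. The myosin-binding protein H gene mybphb had 3091, 3240 and 2517 CPM in mutants, against 1735, 2149 and 1543 CPM in WT, a log2 fold change of 0.73 ± 0.16 (SE, adjusted p = 0.0229). The troponin T gene tnnt3a fell, with a log2 fold change of -1.12 (adjusted p = 0.0258).

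Slow and cardiac isoforms gave 2 rises and 2 falls among 42 genes, a share of 9.52% near the 8.4% of all genes (median 0.03). Both genes that fell encode slow myosin heavy chains. Levels of smyhc1 were 127, 142 and 126 CPM in mutants, against 307, 234 and 202 CPM in WT, and those of smyhc2 were 1927, 2181 and 1894 CPM in mutants, against 4448, 3280 and 2816 CPM in WT. Their log2 fold changes were -0.89 ± 0.17 (SE, adjusted p = 0.0106) and -0.79 ± 0.18 (SE, adjusted p = 0.0221). All 3 mutant values lay under all WT values, and the WT libraries differed among themselves, with replicate 1 highest. Other slow genes were not called, such as the pump gene atp2a2a with 3333, 3591 and 2794 CPM in mutants, against 5068, 4050 and 3376 CPM in WT and the myosin light chain gene myl10 with 2665, 2909 and 2222 CPM in mutants, against 3356, 2677 and 2648 CPM in WT. The genes that rose, the troponin T gene tnnt2b and the troponin I gene tnni1b, were weakly expressed. Levels of tnnt2b were 14.7, 14.8 and 11.6 CPM in mutants, against 9.5, 6.33 and 3.92 CPM in WT. Levels of tnni1b were 10.1, 10.1 and 10.1 CPM in mutants, against 7.4, 7.71 and 5.3 CPM in WT. Their calls were lost in 4 and 6 of the 6 removals.

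At the Z-disc and thin filament, 3 of 49 genes rose and 2 fell, a share of 10.2% near the 8.4% of all genes (median 0.05). The leiomodin gene lmod2b, an actin filament nucleator, had 16.6, 16.6 and 13 CPM in mutants, against 8.78, 7.41 and 5.93 CPM in WT, a log2 fold change of 1.09 ± 0.17 (SE, adjusted p = 0.00466). The Z-disc gene pdlim3b had 15.5, 16 and 16.1 CPM in mutants, against 11.3, 9.14 and 8.37 CPM in WT, a log2 fold change of 0.74 ± 0.14 (SE, adjusted p = 0.0123). Obscurin, a giant protein that links sarcomere and reticulum, is encoded by obscnb, which had 119, 129 and 184 CPM in mutants, against 203, 281 and 234 CPM in WT, a log2 fold change of -0.71 ± 0.19 (SE, adjusted p = 0.0412). The calls of obscnb and of synpo2la, which fell with a log2 fold change of -0.65 (adjusted p = 0.0442), were lost in 5 and 4 of the 6 removals. Nebulin, neb, was not called, with 3899, 4256 and 4704 CPM in mutants, against 3870, 6480 and 3993 CPM in WT. Among 58 costamere and intermediate filament genes, 5 rose and 2 fell, desma included (12.1%, median -0.0013). Syncoilin, an intermediate filament protein that binds desmin in mammals, is encoded by sync, which had 31, 44.5 and 28.4 CPM in mutants, against 20.7, 19.5 and 18.9 CPM in WT, a log2 fold change of 0.83 ± 0.17 (SE, adjusted p = 0.0147). The sarcoglycan gene sgcg, part of the dystrophin complex, averaged 202 ± 8.30 CPM in mutants and 121 ± 20.4 CPM in WT (SD, n = 3 each). The libraries did not overlap, and the log2 fold change was 0.76 ± 0.15 (SE, adjusted p = 0.0113). Dystroglycan of the same complex, dag1, fell, with 87.2, 77.6 and 87.5 CPM in mutants, against 109.5, 123 and 143 CPM in WT and a log2 fold change of -0.55 ± 0.15 (SE, adjusted p = 0.0441), a call that each of the 6 removals ended. The integrin gene itga6a rose by 1.12 (adjusted p = 0.0325). The plectin genes, whose products anchor desmin filaments, were not called, pleca with 215, 224 and 280.5 CPM in mutants, against 244, 297 and 235 CPM in WT and plecb with 212, 192 and 259.7 CPM in mutants, against 259, 295 and 294 CPM in WT.

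Of the named contractile and attachment genes, desma, the rising copies of TNNI2 and lmod2b kept their calls in all 6 removals. With mutant replicate 1, 2 or 3 left out the group had 8, 9 or 14 calls, and with WT replicate 1 left out it had 9.

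**Figure D4:**
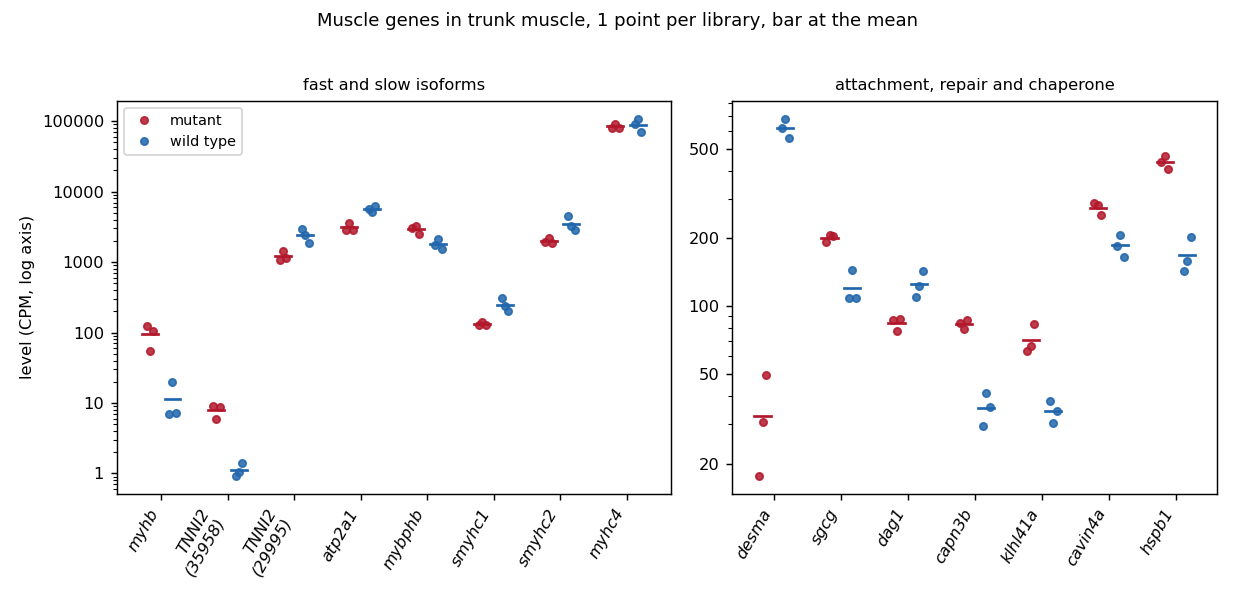
Each point is the level of a muscle gene in 1 trunk library in CPM on a log axis, mutants left of WT, with a bar at the mean of 3 and copies of TNNI2 marked by the last digits of their IDs. The points of myhb, 1 copy of TNNI2, mybphb, sgcg, capn3b, klhl41a, cavin4a and hspb1 lie higher in mutants, those of the other copy of TNNI2, atp2a1, smyhc1, smyhc2, desma and dag1 lower, and those of myhc4 overlap.

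Of 245 metabolic genes tested, 5 rose and 11 fell, a share of 6.53% near the 8.4% of all genes, with a median of -0.07. DESeq2 called 27 of 258, beside 2004 of all 26157 genes in its own test. The abundant creatine kinase gene ckmb had 62990, 75270 and 61440 CPM in mutants, against 57860, 70000 and 55260 CPM in WT, and gapdh of glycolysis had 24190, 29390 and 23620 CPM in mutants, against 22000, 22230 and 18060 CPM in WT, and neither was called. Glycolysis and glycogen genes gave 3 calls in each direction among 61, a share of 9.84%. The phosphoglucose isomerase gene gpib had 367, 399 and 265 CPM in mutants, against 185, 193 and 258 CPM in WT, a log2 fold change of 0.72 ± 0.19 (SE, adjusted p = 0.0473). The gluconeogenic fbp2 had 101.7, 124 and 93.7 CPM in mutants, against 67.7, 61.6 and 71.3 CPM in WT, a log2 fold change of 0.69 ± 0.15 (SE, adjusted p = 0.0194). The phosphoglycerate mutase gene pgam1b had 19.3, 21 and 19.7 CPM in mutants, against 37.7, 24.5 and 42.2 CPM in WT, a log2 fold change of -0.79 ± 0.19 (SE, adjusted p = 0.0329). In pgam1b, WT replicate 2 lay close to the mutants. The phosphorylase kinase gene phkg1b rose, with a log2 fold change of 0.77 (adjusted p = 0.0198). The glycogen phosphorylase gene pygl and the AMP deaminase gene ampd3b fell, with -1.37 (adjusted p = 0.0123) and -0.60 (adjusted p = 0.0303) on the same scale.

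Fatty acid oxidation and lipid genes gave 5 falls and 1 rise among 51 (11.8%, against 8.4% of all genes, median -0.13). The gene cpt1ab, which encodes the carrier step of fatty acids into mitochondria, had 41.4, 65.2 and 63 CPM in mutants, against 114, 88.7 and 168 CPM in WT, a log2 fold change of -1.12 ± 0.26 (SE, adjusted p = 0.0351). The thiolase gene acaa2 had 65.2, 58 and 48.4 CPM in mutants, against 106.9, 70.9 and 123 CPM in WT, a log2 fold change of -0.79 ± 0.21 (SE, adjusted p = 0.0486). Of the genes for fatty acid synthesis, acaca and its regulator srebf1 fell, with log2 fold changes of -0.70 (adjusted p = 0.021) and -0.73 (adjusted p = 0.0408). The receptor gene pparab, a regulator of fatty acid use, fell as well (-0.83 (adjusted p = 0.0182)). The lipid droplet gene plin2 was the one that rose, with 0.695, 1.25 and 0.711 CPM in mutants, against 0.316, 0.351 and 0.201 CPM in WT. The dehydrogenase genes acadm, with 991, 1152 and 904 CPM in mutants, against 997, 1009 and 966 CPM in WT, and acadvl, with 362, 557 and 458 CPM in mutants, against 569.6, 499 and 669 CPM in WT, were not called. In the citrate cycle and pyruvate list, 2 of 43 genes fell and none rose (4.65%, median -0.12). The channel gene vdac1 of the outer mitochondrial membrane had 41.5, 44.6 and 46 CPM in mutants, against 104.1, 85.2 and 76.6 CPM in WT, a log2 fold change of -0.99 ± 0.14 (SE, adjusted p = 0.00299).

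The respiratory chain was nearly without calls, with 1 gene in each direction among 90 (2.22%, against 8.4% of all genes, median -0.07). The subunit gene cox6b1 of cytochrome oxidase had 43.3, 62.8 and 40.7 CPM in mutants, against 25.5, 19.1 and 14.9 CPM in WT, a log2 fold change of 1.32 ± 0.22 (SE, adjusted p = 0.00822). The gene that fell, taco1, is needed in mammals to translate a subunit of the same oxidase. It had 0.304, 0.114 and 0.0837 CPM in mutants, against 4.53, 5.45 and 7.42 CPM in WT. The ATP synthase gene atp5f1b, with 4574, 5941 and 4493 CPM in mutants, against 5873, 5825 and 6227 CPM in WT, was not called. Among the metabolic genes named, taco1, cox6b1 and vdac1 kept their calls in all 6 removals. With mutant replicate 1 or 2 left out the group had 3 or 6 calls, and with WT replicate 1 left out it had 5.

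Genes of stress and protein turnover gave 14 rises and 9 falls among 204 tested (11.3%, against 8.4% of all genes), with a median of 0.08. Among 59 chaperone genes, 2 rose and 1 fell (5.1%, against 8.4% of all genes). The small heat shock protein gene hspb1, whose product protects filaments and actin, had 438, 463 and 409 CPM in mutants, against 143, 159 and 204 CPM in WT, a log2 fold change of 1.39 ± 0.17 (SE, adjusted p = 0.00116). Of the other 58 chaperone genes, the protein disulfide isomerase gene pdia3 rose and the co-chaperone gene bag2 fell, with log2 fold changes of 0.51 (adjusted p = 0.0323) and -0.90 (adjusted p = 0.0339). The related small heat shock gene hspb6 was not called, with 1576, 1463 and 1611 CPM in mutants, against 1487, 1326 and 1652 CPM in WT. Thioredoxin and antioxidant genes gave 8 rises and 4 falls among 51. The ferritin heavy chain gene fth1a, for iron storage, had 926, 897 and 789 CPM in mutants, against 529, 528 and 559.5 CPM in WT, a log2 fold change of 0.71 ± 0.14 (SE, adjusted p = 0.0118). The glutathione transferase gene mgst3a had 73.6, 77.3 and 69.4 CPM in mutants, against 45.4, 35.4 and 30.7 CPM in WT, a log2 fold change of 1.00 ± 0.16 (SE, adjusted p = 0.00419). The paired genes gsta.1 and gsta.2 moved in opposite directions, though reads that fit more than 1 place were not counted. The first fell, with 10.8, 14.5 and 10.3 CPM in mutants, against 48.6, 48.5 and 24.3 CPM in WT, and the second rose, with 2.63, 3.5 and 2.32 CPM in mutants, against 0.789, 0.552 and 0.528 CPM in WT. The extracellular superoxide dismutase gene sod3b fell, with 0.304, 0.247 and 0.732 CPM in mutants, against 2.39, 1.91 and 1.78 CPM in WT and a log2 fold change of -2.23 ± 0.38 (SE, adjusted p = 0.00745).

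Ubiquitin, proteasome regulator and autophagy genes gave 4 calls in each direction among 60 (13.3%, against 8.4% of all genes, median 0.15). The polyubiquitin gene ubb had 50.8, 37.6 and 43.7 CPM in mutants, against 93.9, 89 and 66.3 CPM in WT, a log2 fold change of -0.89 ± 0.17 (SE, adjusted p = 0.0108). The mitophagy receptor gene bnip3lb had 154, 159 and 162 CPM in mutants, against 236, 265 and 222 CPM in WT, a log2 fold change of -0.58 ± 0.13 (SE, adjusted p = 0.0213). The lysosomal cathepsin genes ctsh and ctsz rose by 0.66 (adjusted p = 0.018) and 0.60 (adjusted p = 0.0157) on the log2 scale. The cathepsin L gene ctsl.1 fell, with 0.261, 0.228 and 0.126 CPM in mutants, against 1.22, 1.86 and 0.679 CPM in WT and a log2 fold change of -2.57 (adjusted p = 0.00808). The muscle atrophy ligase gene fbxo32 was not called, with 131, 139 and 206 CPM in mutants, against 146, 174 and 56.5 CPM in WT, in which WT replicate 3 lay well below the other WT libraries. None of 35 immediate early genes was called by edgeR's quasi-likelihood test, against 5 at an unadjusted p under 0.05 and 1 called by DESeq2. Such genes answer to handling and tissue stress, and nr4a1 had 274, 159 and 186 CPM in mutants, against 235, 162 and 186 CPM in WT. Of the named stress and turnover genes, hspb1, txnb, sod3b, gsta.1, gsta.2, mgst3a and ctsl.1 kept their calls in all 6 removals. With mutant replicate 1, 2 or 3 left out the group had 9, 11 or 15 calls, and with WT replicate 1 or 3 left out it had 11 or 36.

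Among the 10 largest rises and 10 largest falls with at least 5 CPM, several genes belong to none of the function lists. The dehydrogenase gene dhrs11b.1 had 12, 13.1 and 10.1 CPM in mutants, against 2.08, 2.38 and 1.69 CPM in WT, a log2 fold change of 2.54 ± 0.18 (SE, adjusted p = 7.11e-05). The NOD-like receptor gene nlrc8 had 0.934, 1.25 and 1.19 CPM in mutants, against 16.8, 15.4 and 9.68 CPM in WT, a log2 fold change of -3.60 ± 0.23 (SE, adjusted p = 4.21e-05). The cytoskeletal gene shroom3 had 0.304, 0.855 and 0.356 CPM in mutants, against 5.78, 6.35 and 6.99 CPM in WT, a log2 fold change of -3.62 ± 0.33 (SE, adjusted p = 0.000447). The hemopexin gene hpxb had 1.04, 0.703 and 1.21 CPM in mutants, against 4.85, 3.24 and 10.03 CPM in WT, with WT replicate 3 the highest and a log2 fold change of -2.61 ± 0.46 (SE, adjusted p = 0.0154). Of these, dhrs11b.1, nlrc8 and shroom3 kept their calls in all 6 removals. Among called genes with the highest levels, mlf1 had 460.1, 490.4 and 437 CPM in mutants, against 303, 345 and 220.5 CPM in WT, a log2 fold change of 0.70 ± 0.17 (SE, adjusted p = 0.0283).

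Markers of other tissues were examined beside these groups. Of the 48 photoreceptor genes, 45 had reads in trunk, 37 of these were highest in WT replicate 1, and 12 with reads in WT had none in any mutant library, among them arr3a and several cone opsins. Only 11 of the 48 passed the filter on low counts, and 2 fell (18.2%, against 8.4% of all genes). Genes this low can pass that filter through the WT libraries alone, so this share cannot show a loss in mutants. A guanylate cyclase activator gene (GUCA1A in the symbol table, ENSDARG00000100747) had 0.109, 0.152 and 0.23 CPM in mutants, against 0.857, 0.578 and 0.528 CPM in WT, a log2 fold change of -1.97 ± 0.45 (SE, adjusted p = 0.0247), and pde6ha was the other. The cone arrestin gene arr3a had 0, 0 and 0 CPM in mutants, against 15.8, 0.678 and 0.402 CPM in WT. In EOM libraries, which come from beside the eye, the list summed to 114, 243 and 327 CPM in mutants, against 725, 392 and 78.7 CPM in WT. The eye transcription factor gene pax6b had 0, 0 and 0 CPM in mutants, against 1.92, 1.28 and 0.83 CPM in WT, and was called lower in mutants. Unlike the photoreceptor sum, its mean was not higher in WT EOM, at 0.852 CPM, than in WT trunk, at 1.34 CPM. In mutant EOM it averaged 0.219 CPM. Whether its reads in trunk came from eye RNA was not tested. A count of 0 allows a level of up to 0.057 to 0.0754 CPM in these libraries. Lens genes summed to 4.94 to 5.78 CPM in mutants and 4.43 to 5.37 CPM in WT. Of the 630 genes lower in mutants, 7 had a level in WT replicate 1 at least 2-fold above both other WT libraries. The same held for 180 of all 17342 genes tested. A gene with such a spread within WT is hard to call, so these counts cannot measure the part of eye RNA. The part of eye RNA in the other results was not tested, and 649 genes were called in all without WT replicate 1, with 2 of the photoreceptor genes still among them. No photoreceptor gene was called without mutant replicate 1 or 2, 1 without mutant replicate 3 or WT replicate 2, and 5 without WT replicate 3.

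Of 45 keratinocyte genes tested, 3 fell and none rose (6.67%, against 8.4% of all genes), and the list's median was -0.94. Of its 56 members with reads in trunk, 29 were highest in WT replicate 3 and 14 in WT replicate 1. Its summed level did not separate the genotypes, with 1233, 1371 and 1335 CPM in mutants, against 1642, 1043 and 1588 CPM in WT. No member with reads in WT was at 0 in all 3 mutants. The genes that fell were the keratin krt17, with 1.04, 1.01 and 0.962 CPM in mutants, against 4.89, 2.23 and 9.3 CPM in WT, the claudin cldne, with 0.456, 0.228 and 0.669 CPM in mutants, against 2.14, 0.879 and 3.57 CPM in WT, and the protease inhibitor spint1b, with 0.63, 0.627 and 0.565 CPM in mutants, against 1.8, 1.48 and 2.46 CPM in WT. Without WT replicate 2, the library with the lowest sum, 9 keratinocyte genes were called, all lower. There were 6 without mutant replicate 3, and 1 when mutant replicate 1 or 2 or WT replicate 1 was left out. The pigment granule gene mlpha fell as well, with 0.499, 0.95 and 0.732 CPM in mutants, against 2.37, 4.92 and 2.26 CPM in WT. The part of skin RNA in the changes of hpxb and other genes that were highest in WT replicate 3 was not tested.

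Of the nerve and myelin genes, 2 of 34 rose and 2 fell (11.8%, against 8.4% of all genes). The myelin protein genes mpz, with 16.8, 16.7 and 18.7 CPM in mutants, against 30.7, 28 and 25.5 CPM in WT, and mag, with 11.8, 13.6 and 13.2 CPM in mutants, against 20.5, 19.2 and 15.8 CPM in WT, fell, while the neuronal filament gene prph, with 2.95, 3.36 and 1.9 CPM in mutants, against 1.22, 1.51 and 1.26 CPM in WT, and the myelin enzyme gene cnp, with 29.3, 27.4 and 27.1 CPM in mutants, against 20.5, 21.6 and 19.5 CPM in WT, rose. Endothelial genes gave 1 rise and 2 falls among 32, a share of 9.4% near the 8.4% of all genes. The lymphatic and venous marker lyve1a had 2.67, 2.32 and 2.89 CPM in mutants, against 7.35, 6.65 and 6.41 CPM in WT, a log2 fold change of -1.35 ± 0.17 (SE, adjusted p = 0.00129). The junction gene cdh5 had 76, 90.3 and 83.8 CPM in mutants, against 123, 125 and 121 CPM in WT, and cd34 had 73.1, 84.4 and 67.3 CPM in mutants, against 51.8, 53.9 and 50.1 CPM in WT. The endothelial sum was 757 to 871 CPM in mutants and 878 to 984 CPM in WT. Of 15 tendon and connective tissue genes tested, tnmd alone was called (6.67%), with a rise of 0.74 (adjusted p = 0.0265) on the log2 scale. Of the 15, 11 had a positive log2 fold change (median 0.33). None of 14 red blood cell, 12 scale and bone, 12 adipocyte and 5 lens genes tested was called by edgeR's quasi-likelihood test. At an unadjusted p under 0.05 there were 0, 1, 4 and 2 such genes, and DESeq2 called 0, 0, 3 and 0. Of 2 liver and egg genes tested, the yolk protein gene vtg3 fell, with 0.261, 0.285 and 0.439 CPM in mutants, against 1.01, 0.753 and 1.01 CPM in WT. The yolk gene is made in female liver, and the sex of the fish is not labelled.

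**Figure D5:**
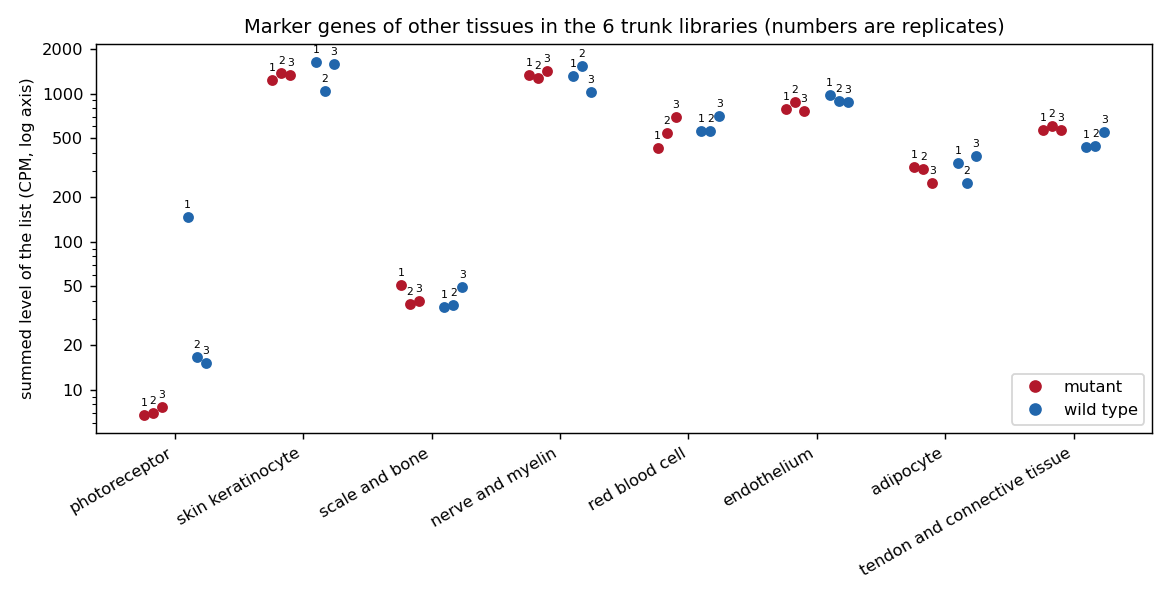
Each point is the summed level of a marker list in 1 trunk library in CPM on a log axis, mutants left of WT, numbered by replicate. Photoreceptor genes stand out in WT replicate 1 at 147 CPM, and the sums of the skin, bone, nerve, blood and fat lists overlap between mutants and WT.

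Whether the mutant effect in trunk differed from that in EOM was tested in a fit of all 12 libraries. Of 19687 genes, 18 (0.0914%) were called, 12 more positive (0.061%) and 6 more negative (0.0305%) in trunk, and 1930 had an unadjusted p under 0.05. Of these 18 genes, 13 were also called in trunk alone. The named copy of TNNI2 (ENSDARG00000035958) was among them, with a trunk minus EOM difference of 2.26 ± 0.27 (SE, adjusted p = 0.00426) on the log2 scale, and kept its call without each of the 12 libraries. The transglutaminase gene tgm2a, a crosslinking enzyme outside the naming rule, differed by 1.77 ± 0.30 (SE, adjusted p = 0.0497). It averaged 14.8 CPM in mutant trunk and 9.03 CPM in WT trunk, beside 7.93 CPM in mutant EOM and 16.5 CPM in WT EOM, and lost this call in 11 of the 12 removals of a library. Across these removals 5 to 19 genes were called, with 5 without mutant trunk replicate 2 and 5 without mutant EOM replicate 2. None of the inflammation, regeneration or metabolism genes called in trunk was called for this difference, although a p that misses the threshold does not show that their changes were alike in both tissues.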

How the data were processed

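RNA was measured in 12 libraries, of which the 6 trunk libraries are compared here. Per the submitters' processing notes, STAR and DESeq2 were used with GRCz11, with no versions given. The deposited values are raw counts of reads per gene for 32520 Ensembl IDs, with tallies of other reads that were left out of library sizes. In trunk libraries the tallies held 7.95% to 14.3% of reads as unmapped, 9.96% to 10.8% as multi-mapping, 5.93% to 6.85% as outside genes and 1.34% to 1.55% as ambiguous. The first single-strand count was taken as sense, since the other held 2.77% to 3.21% of stranded gene reads. IDs were named through a symbol table and RefSeq (GRCz12tu), where 16965 symbols matched exactly and 3833 copies were resolved by the chromosome of their neighbours. Other IDs carry the table's symbol or their ID, and no coordinates are given.

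Genes were filtered with filterByExpr and tested with edgeR 4.0.16 in R 4.3.3 (TMM factors, robust quasi-likelihood fit, Benjamini-Hochberg adjustment over all genes tested, call under 0.05), on the 6 trunk libraries, and for the difference between tissues on all 12. The procedure was tested on simulated data. DESeq2 1.42.0, other scalings, filters and strands, a replicate block and the removal of each library were the alternatives. No 2 trunk libraries of the same group agreed within sampling noise, and other pairs were not compared. Members and lists were chosen with earlier results of these data known, so lists are described by counts and medians without a p-value. Genes were named by rule: the 10 largest rises and falls with at least 5 CPM, the 5 called genes with the highest levels in each direction, in each list up to 6 called members with the largest change and the 3 most abundant members not called, up to 5 genes in each direction for the difference between tissues, and the desmin and fhl2 genes. Names outside it are given as such. Some results under the rule are not reported here. The series text speaks of more than 1 time point, and only 20 months was analysed here.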

Additional observations from a re-analysis of the deposited data

Results flagged for a closer look

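The mutant effect differed between trunk and extraocular muscle (EOM) in 18 genes by edgeR's quasi-likelihood test of the difference itself, at an adjusted p under 0.05. The values below are trunk minus EOM on the log2 scale, with the mutant over WT log2 fold change of each tissue from the fit of all 12 libraries. The difference was 2.36 for thbs4a (0.85 in trunk and -1.52 in EOM), 2.26 for ndufa4b (0.16 in trunk and -2.102 in EOM) and 3.82 for txnb (4.81 in trunk and 0.99 in EOM). It was 2.26 for the TNNI2 copy ENSDARG00000035958 (2.83 in trunk and 0.57 in EOM) and -2.37 for si:dkey-193e13.8 (-1.59 in trunk and 0.78 in EOM). These 5 kept their calls under every alternative that was run.

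The other 13 lost the call in at least 1 removal of a library. More positive in trunk were zgc:110699 at 2.098 (1.05 in trunk and -1.05 in EOM), ENSDARG00000104924.2 at 1.87 (1.59 in trunk and -0.28 in EOM) and dhrs11b.1 at 1.58 (2.52 in trunk and 0.94 in EOM). The same held for rasd2b at 4.45 (3.03 in trunk and -1.41 in EOM), ENSDARG00000098989.2 at 2.297 (0.05 in trunk and -2.24 in EOM) and si:ch211-43f4.1 at 1.37 (1.00 in trunk and -0.38 in EOM). It also held for tgm2a at 1.77 (0.71 in trunk and -1.05 in EOM) and myo5b at 2.38 (0.37 in trunk and -2.01 in EOM). More negative in trunk were dlg2 at -2.06 (-0.99 in trunk and 1.07 in EOM), sestd1 at -1.38 (-0.01 in trunk and 1.37 in EOM), sacs at -1.47 (-0.78 in trunk and 0.69 in EOM) and mylk3 at -0.92 (-0.53 in trunk and 0.40 in EOM). In rasd2b, mutant trunk libraries averaged 0.214 CPM and WT trunk libraries 0.0234 CPM, the second under the level of 3 reads, so its fitted values depend on the prior count. The last, pax6b, was at -7.38 (-9.32 in trunk and -1.94 in EOM), a fitted value that depends on the prior count, since all 3 mutant trunk libraries held no read of it.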

How the results depend on the processing

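No gene called both in the main fit and in an alternative changed its direction. The 157 named genes called in trunk and the 18 of the difference test kept theirs in every alternative that tested them. For other genes, direction was not checked where the call was lost. Leaving out 1 library at a time gave 488 to 2043 trunk calls (1456 with all 6), 37 to 58 inflammation (59), 8 to 46 matrix (34), 4 to 33 regeneration (15), 8 to 31 contractile (23), 3 to 18 metabolism (16) and 9 to 36 stress and turnover calls (23). The test of the difference between tissues gave 5 to 19 (18). DESeq2 called 2004 genes in trunk, 37 contractile, 27 metabolism and 35 stress and turnover genes, and 193 in the difference test, which gave 35 without a filter and 11 at a mean of at least 50 reads. Unscaled library totals gave 18 matrix and 9 regeneration calls, and moved the median of the difference test by over 0.1 on the log2 scale, to -0.11. In trunk, RLE size factors gave 1446 calls, unscaled totals 1037, no filter 1816, a mean of at least 50 reads 1094, either strand 1444 and the fit of all 12 libraries 1597. Of 157 named genes called in trunk, 55 kept the call throughout, the others lost it in at least 1 setting, 65 of them in a setting other than a removal. The causes were not tested. Same-numbered mutant and WT trunk libraries correlated in their deviations from the group means at 0.128, -0.086 and 0.091 over 13211 genes. Taken from means of 3 libraries, these values cannot show whether the numbers pair the samples. Blocking on the replicate number gave 1238 calls, 1079 of them shared with the 1456, 21 matrix calls and 20 calls in the difference test. Not every library correlated best with its own number. Genes under the filter on low counts were not tested, and counting intervals cover counting error only.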

Other observations

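The families and genes below were chosen after their values were seen, and their counts are descriptions, to be read beside the 4.76% of all genes called higher and the 3.63% called lower. Argonaute and TNRC6 genes, whose products carry out silencing by small RNAs, gave 5 falls and no rise among 10 tested. Of these, ago3a is also named by rule, as one of the 10 largest falls with at least 5 CPM. Its levels were 0.673, 1.1 and 1.17 CPM in mutants, against 19.6, 15 and 18.1 CPM in WT, a log2 fold change of -4.135 ± 0.22 (SE, adjusted p = 2.41e-05). Levels of ago1 were 0.195, 0.418 and 0.377 CPM in mutants, against 1.74, 1.23 and 1.84 CPM in WT, and ago4, tnrc6ba and tnrc6bb.1 fell with log2 fold changes of -0.57, -0.70 and -0.89. Genes of protein import into mitochondria gave 3 falls and no rise among 25. The receptor gene tomm70a had 22.9, 26.5 and 28.6 CPM in mutants, against 39.95, 42.2 and 42.2 CPM in WT. The genes timm50 and timm23a fell with log2 fold changes of -0.71 and -0.51. Of 13 calpain genes, 4 rose and none fell. Beside capn3b and capn1a these were the small subunit genes capns1a, with 88.8, 93.8 and 77.8 CPM in mutants, against 58, 67.3 and 54.6 CPM in WT, and capns1b, with 54.4, 56.3 and 43.6 CPM in mutants, against 37.9, 34.7 and 33.7 CPM in WT.

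Among 22 genes of the proteasome core, 6 rose and none fell, of which psmb8a, psmb9a, psmb10 and psmb12 are counted under antigen presentation as well. The subunit gene psma6l had 8.45, 4.31 and 3.95 CPM in mutants, against 1.8, 1.88 and 1.51 CPM in WT, a log2 fold change of 1.71 ± 0.30 (SE, adjusted p = 0.00943). In the order of RefSeq genes, 6 neighbours run from mhc1uba to tap2a, of which 4 rose and 1 fell. The gene directly before mhc1uba, tapbp.2, rose as well. The class I gene mhc1uba is the one that fell, next to psmb13a, which was not called and had 27.1, 11.6 and 8.7 CPM in mutants, against 4.31, 4.75 and 2.79 CPM in WT. The genes psmb8a, psmb12, psmb9a and tap2a, which encodes a peptide transporter, follow. Levels of tap2a were 10.6, 5.09 and 3.28 CPM in mutants, against 2.21, 1.46 and 1.84 CPM in WT. Another class I gene, mhc1uca, rose, with 104.2, 82.4 and 79.4 CPM in mutants, against 41.9, 42.5 and 36.2 CPM in WT. The invariant chain genes cd74a and cd74b, which guide class II molecules, had 373, 299.7 and 193 CPM in mutants, against 121, 114 and 127 CPM in WT, and 174, 138 and 95 CPM in mutants, against 49.4, 45.9 and 48.9 CPM in WT. Both rose, with log2 fold changes of 1.28 ± 0.22 (SE, adjusted p = 0.00822) and 1.52 ± 0.21 (SE, adjusted p = 0.0025). The caveolin gene cav3 of muscle membranes had 142, 146 and 147 CPM in mutants, against 94, 98.7 and 102.4 CPM in WT, a log2 fold change of 0.58 ± 0.13 (SE, adjusted p = 0.0198).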
